A study of Mus musculus with 4 samples.

Results

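Plasmacytoid dendritic cells (pDC) were sought among the cells of 4 mouse brain tumors by their RNA, and 82 of 10975 cells passed the gate for them. The members were selected on their own UMI counts (unique molecular identifiers, each the tag of 1 captured mRNA molecule). A member carried at least 2 UMIs of Siglech and at least 1 UMI of Bst2, Tcf4, Irf8 or Ly6d. It carried no UMI of the microglial genes P2ry12 and Tmem119, at most 1 UMI of C1qa, C1qb and C1qc together, and fewer than 5 UMIs of the tumor reporter. Since these counts chose the members, the levels of Siglech, Bst2, Tcf4, Irf8 and Ly6d are given as a description only and no test rests on them.

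The tumors were high-grade gliomas of mice with the genotype hGFAP-cre::TP53Fl/Fl::lsl-MYCN, in which Cre recombinase under the human GFAP promoter acts in neural precursor cells, removes Trp53 there and switches on human MYCN together with firefly luciferase. Mouse 4 and mouse 5 were 43 days old (P43), and mouse 6 and mouse 7 were 70 days old (P70). All 4 mice carried the same alleles and no tumor-free brain was included, so the pDC are described within tumors. The tumors were dissociated enzymatically, red cells were lysed and non-vital cells were sorted away before droplet sequencing of mRNA 3′ ends, and no step selected immune cells.

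The libraries of mice 4, 5, 6 and 7 held 3430, 1739, 2972 and 3693 barcodes with 15044263, 13106786, 18698291 and 40621958 UMIs in all. Barcodes were kept if they showed 200 genes or more, no more than 40000 UMIs and a mitochondrial share under 25%, which left 3319, 1455, 2732 and 3469 cells with medians of 1419, 4199, 4586.5 and 10450 UMIs. The libraries labelled P43 went against their labelled sex. In cells with fewer than 5 reporter UMIs, 4 genes of the Y chromosome reached 171 CPM (UMIs scaled to a total of 1000000) in mouse 4, labelled female, and 0.505 CPM in mouse 5, labelled male, against 186 CPM in mouse 6 (male) and 0 in mouse 7 (female). Both mice have the same age, so the age groups do not change if their libraries were exchanged. Between libraries, 12 kept barcodes were shared, none of them of a pDC.

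pDC are dendritic cells of the bone marrow that patrol blood and lymphoid tissue and are rare in brain tissue. They take up nucleic acids, read RNA through the endosomal receptor TLR7 and DNA through TLR9, and are known for the large amounts of type I interferon they can release through IRF7. The basic helix-loop-helix factor TCF4 sets up and keeps their identity together with SPIB, RUNX2, BCL11A and IRF8, while the inhibitor ID2 stands for conventional dendritic cells. SIGLEC-H and BST2 mark their surface in mice, CCR9 guides them into tissues, and a large secretory apparatus gives them the look of plasma cells.

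TCF4 binds E-boxes and interferon-regulated genes often carry an interferon-stimulated response element, so the sequence upstream of the marker genes was searched on both strands for the E-box CACCTG (reverse CAGGTG) and for the core of the response element, GAAA followed after any 2 bases by GAAA again (reverse TTTC and TTTC). In the 250 bases before the RefSeq start (GRCm38.p6), 5 of the 11 pDC markers with an entry, of 18 listed, held the E-box (45.5%), against 4620 of 27025 genes (17.1%). The response element stood in 2 of the 11 (18.2%) and in 821 of all genes (3.04%). None of the 8 listed transcription factors with an entry, of 10, held either motif there. The markers that hold the E-box are shown because 4 of them (Siglech, Ccr9, Klk1 and Cd300c) lead the genes of these cells and the fifth, Bst2, holds both motifs within 1 window. Each line is 120 bases in the direction of the gene, capitals mark the motifs, and a match describes letters and is no evidence of binding. The windows are chr7:55768054-55768173 (Siglech, plus strand), chr9:123767041-123767160 (Ccr9, plus strand), chr7:44225230-44225349 (Klk1, plus strand), chr11:114960518-114960637 (Cd300c, minus strand) and chr8:71537568-71537687 (Bst2, minus strand).
Siglech: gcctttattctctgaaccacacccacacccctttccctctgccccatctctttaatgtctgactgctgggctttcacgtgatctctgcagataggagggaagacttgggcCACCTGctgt
Ccr9: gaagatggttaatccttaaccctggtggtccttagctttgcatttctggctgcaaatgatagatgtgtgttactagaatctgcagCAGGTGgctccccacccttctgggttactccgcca
Klk1: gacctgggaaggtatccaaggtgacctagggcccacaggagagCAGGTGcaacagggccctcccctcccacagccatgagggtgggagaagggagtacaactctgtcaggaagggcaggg
Cd300c: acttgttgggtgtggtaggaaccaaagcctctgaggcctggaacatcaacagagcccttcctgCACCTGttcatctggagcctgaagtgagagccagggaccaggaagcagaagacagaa
Bst2: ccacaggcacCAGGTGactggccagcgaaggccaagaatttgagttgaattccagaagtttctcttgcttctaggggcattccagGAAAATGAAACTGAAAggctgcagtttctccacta
Counted from the RefSeq start of transcription, the E-box begins at -20 in Siglech, -85 in Ccr9, -87 in Klk1, -67 in Cd300c and -205 in Bst2. The capitals at the end of the Bst2 window are 2 overlapping response elements, at -130 and -124. Cd300c holds 1 more response element outside the window, at -231. No exon of the annotation overlaps these windows. The windows of Ccr9 and Cd300c lie inside the span that the GENCODE annotation gives these genes, so their RefSeq starts are internal to it.

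Mouse 6 held most of the pDC. The gate found 6 pDC in mouse 4 (0.181% of kept cells, 95% exact binomial interval 0.0664 to 0.393), 6 in mouse 5 (0.412%, 0.151 to 0.895), 68 in mouse 6 (2.49%, 1.94 to 3.14) and 2 in mouse 7 (0.0577%, 0.00698 to 0.208). The intervals cover counting error only. The share in mouse 6 lay above the intervals of the other 3 mice, and the mice at P70 held both the highest and the lowest share. The mean share was 0.297% at P43 and 1.27% at P70, a difference of 0.977 percentage points (exact two-sided permutation test over mice, p = 1, n = 2 mice per age, smallest p the design allows 0.333). Without mouse 6 the difference was -0.239 points, so its direction rests on that library.

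Since a deeper cell can pass a limit of 2 UMIs more easily, the gate was applied again after thinning every cell to 1000 UMIs, which left out 1246, 107, 344 and 93 shallower cells of mice 4 to 7. It then found 4, 4, 56 and 0 pDC (0.193%, 0.297%, 2.35% and 0%, the last of 3376 cells), and mouse 6 remained highest. With only cells under 5 reporter UMIs as the denominator, so that the number of tumor cells did not enter, the shares were 0.201%, 0.491%, 2.88% and 0.204%. The gate itself narrowed 164 cells with any Siglech to 110 with at least 2 UMIs, all of which carried a partner gene. The loss of cells with P2ry12 or Tmem119 left 87 and the limit on C1q left 82, while the reporter limit removed none.

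**Figure D1:**
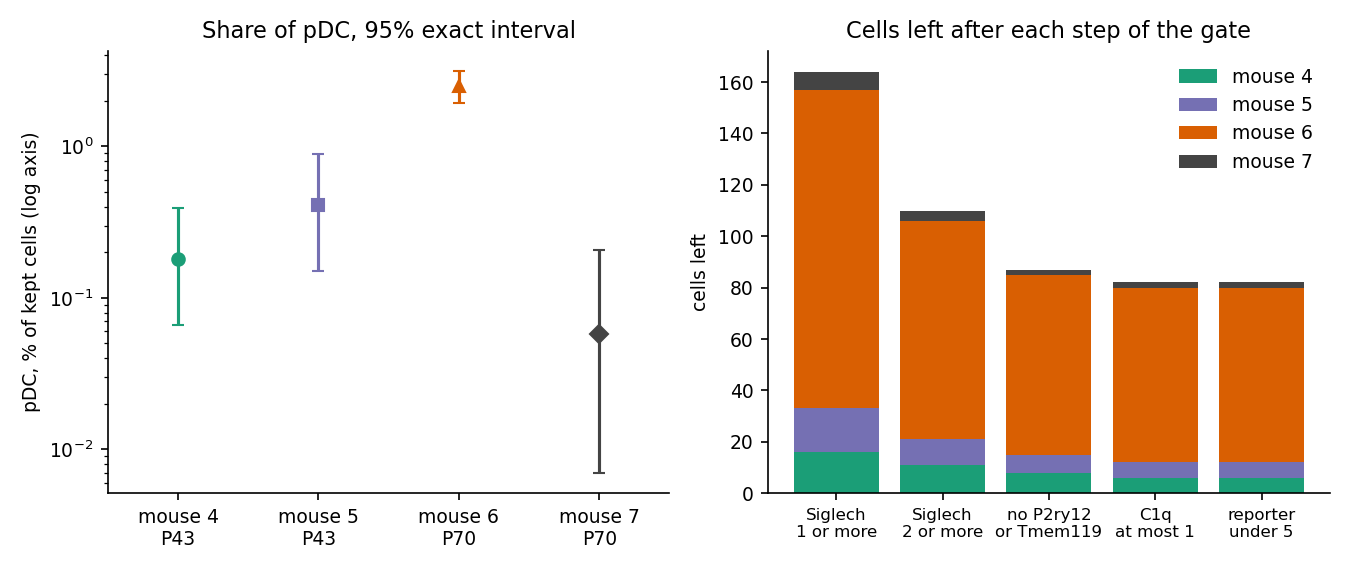
The left panel plots the share of pDC among kept cells (percent, log axis) in each mouse with its 95% exact binomial interval, and the right panel the number of cells left after each step of the gate, stacked by mouse. Mouse 6 stands at 2.49%, above the other 3 mice, and holds 68 of the 82 cells.

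The 82 pDC carried 425267 UMIs, 29730, 55660, 333259 and 6618 of them in mice 4 to 7, so that a single UMI is worth from 3 CPM (mouse 6) to 151 CPM (mouse 7). The median pDC had 5417.5, 8181, 5256.5 and 3309 UMIs in the 4 mice and 2.36%, 2.62%, 3.64% and 3.32% mitochondrial UMIs. The shallowest held 619 UMIs and the deepest 13553. Reporter RNA came to 9 UMIs in 9 pDC.

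Siglech (chr7:55768178-55778925, build GRCm38), the inhibitory lectin of the pDC surface, stood at 1985, 1886, 3022 and 1813 CPM in the pDC of mice 4, 5, 6 and 7. Bst2, or tetherin, stood at 3633, 2336, 4165 and 3929 CPM and was found in 81 of 82 pDC. Tcf4 stood at 1581, 1240, 1530 and 453 CPM in 78 pDC. All 3 genes were present in the pDC of every mouse, and the low Tcf4 of mouse 7 is 3 UMIs. Irf8, a factor of the dendritic lineage, stood at 2825, 1940, 3190 and 1813 CPM in 70 pDC, and Ly6d, a surface protein of lymphoid progenitors, at 1951, 1347, 4159 and 1813 CPM in 65 pDC. Siglech, Bst2, Tcf4 and Irf8 were thus each present in at least 70 of the 82 members.

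The leading genes were read without regard to the gate, as those with the largest fold of the pDC over all other kept cells with 10 CPM added to both sides, and they are given as a description. After Ly6d (204-fold) and Siglech (196-fold) came Ccr9 at 106-fold, the kallikrein Klk1 at 64.2-fold and Cox6a2, a subunit of cytochrome c oxidase otherwise known from muscle, at 59.9-fold. The ribonuclease Rnase6 (47.1-fold), Cd8b1 (45.1-fold), Irf8 (40.7-fold), Gm21762 (38.1-fold) and the cytochrome Cyb561a3 (34.7-fold) completed the first 10. Cd300c, Runx2, Smim5, Lair1, Cd7, Ccl4, Spib, Mctp2 and Cd8a were among those that followed, down to 20.7-fold. Cd8a and Cd8b1 came with hardly any other T cell RNA, since Cd3e and Cd3g had 0 UMIs and Cd3d 1 UMI in the pDC. In mouse 7, Cd8b1, Gm21762, Smim5, Lair1, Cd7 and Cd8a had no UMI, at a depth where 3 UMIs are 453 CPM.

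To compare shares of cells at 1 depth, all cells were thinned to 1000 UMIs, which left out 5 of the 82 pDC. Siglech, the gate gene, then had a UMI in 81.8% of pDC and in 2.02% of microglia and macrophages, while Cd209a DC, Ccr7 DC and B lineage cells lack it by their rule (these classes are defined with the comparisons). The median depths before thinning were 5605 UMIs in the pDC and 5718 in microglia and macrophages. Unthinned, 27 of 607 microglia and macrophages carried Siglech. Ccr9, which no gate used, had a UMI in 63.6% of thinned pDC, 1.1% of T and NK cells and 0% of the other 5 classes. Irf8 was less particular, with 84.4% of pDC, 57.0% of Ccr7 DC and 40.9% of B lineage cells, and Tcf4 was found in 71.4% of pDC and 38.0% of reporter cells. Before thinning, Siglech was present in all 82 pDC by rule and Ccr9 in 69.

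The members were not uniform, and the ones just inside the limit differed from the rest. Of the 82, 12 had 2 Siglech UMIs, 16 had 3 to 9 and 54 had 10 or more, and 33 further cells with 1 UMI met every other condition. Along these 4 groups, from 1 UMI upwards, Ly6d stood at 59.2, 628, 1600 and 4604 CPM and Ccr9 at 34.5, 80.6, 817 and 1682 CPM. Runx2 stood at 59.2, 48.3, 117 and 703 CPM in the same order. H2-Ab1, a chain of the MHC class II complex that presents peptides to T cells, ran the other way, at 7812, 9234, 1683 and 834 CPM. The interferon-induced membrane gene Ifitm3 stood at 2694, 2578, 2799 and 267 CPM, and Id2 at 301, 725, 66.7 and 26.4 CPM. These cells share libraries, and the values are given without a test.

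Among the 12 members with 2 Siglech UMIs, 6 carried more than 100 UMIs of H2-Aa, H2-Ab1, H2-Eb1 and Cd74. They came from all 4 mice (1, 2, 2 and 1) and had 0 UMIs of Ly6d, Klk1, Cox6a2 and Spib. Xcr1 and Itgae, markers of the cross-presenting conventional dendritic cells called cDC1, had 16 UMIs in 2 of these 6 cells and 31 UMIs in 4 of them, and 0 UMIs in every member with 3 or more Siglech UMIs. The RNA of these 6 cells goes against the label, and several results are repeated below with the 54 pDC of at least 10 Siglech UMIs. In 9 members, 3 of them among these 6, no Irf8 UMI was found in spite of at least 2000 UMIs, and the 9 held 0 UMIs of Klk1 and Cox6a2, 4209 CPM of Ifitm3 and 797 CPM of the chemokine Cxcl10. The MHC class II sum ran from 0 over a median of 17.5 to 505 UMIs per member.

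**Figure D2:**
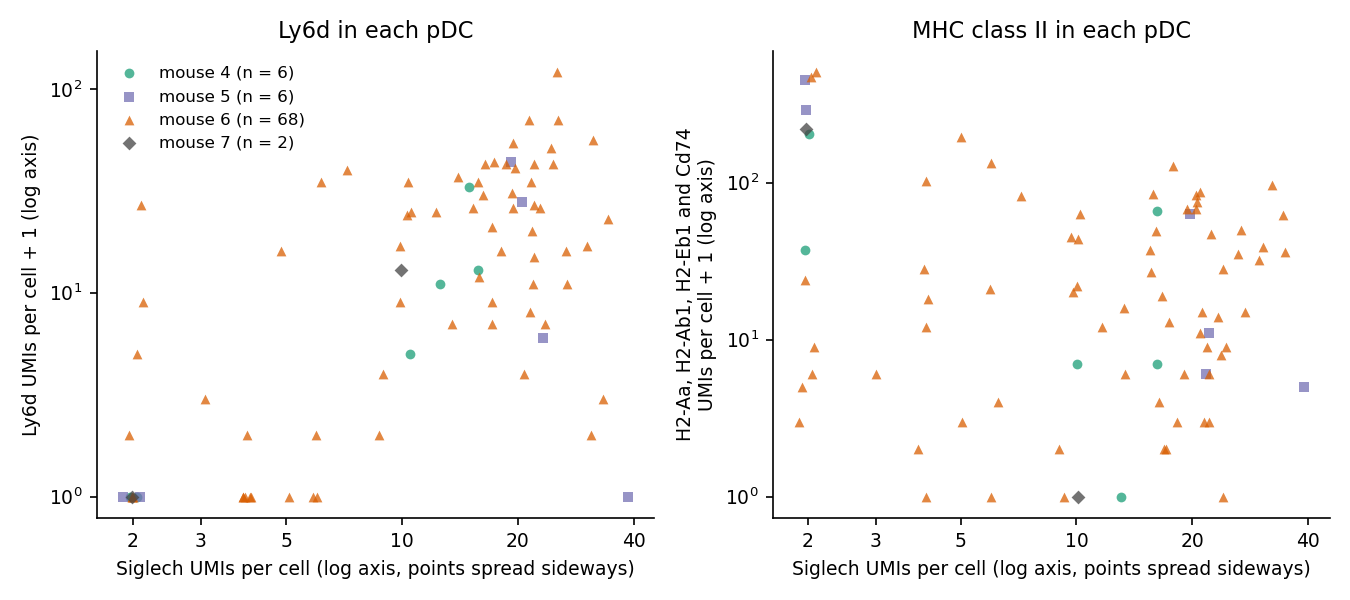
Each point is 1 of the 82 pDC, with its Siglech UMIs (log axis, spread sideways to separate points) against its Ly6d UMIs (left) and its summed UMIs of H2-Aa, H2-Ab1, H2-Eb1 and Cd74 (right), both with 1 added on a log axis. The 6 members with 2 Siglech UMIs and more than 100 MHC class II UMIs stand at the top left of the right panel, 1 or 2 from each mouse.

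Among the markers of other cell types, neutrophil RNA stood out in a few pDC. Genes of the monocyte and Cd209a DC lists were not all low either. In the pDC of mice 4, 5 and 6, Ly6c2 had 1254 UMIs, H2-Ab1 879, Lyz2 143 and Clec10a 130. S100a8, S100a9, Camp and Ngp summed to 0, 1607, 1315 and 0 UMIs in the pDC of mice 4 to 7, led by S100a9 with 1541 UMIs, in 8 pDC. The 1607 UMIs of mouse 5 lay in 1 pDC, and 5 pDC held 10 or more. Of the 9 microglial and macrophage genes, 6 had a UMI and Selplg, which many leukocytes carry, gave 232 of the 292 UMIs, while Tmem119 and P2ry12 were at 0 by rule. Of the B lineage list, Cd79a, Ms4a1, Pax5, Ebf1 and Jchain were at 0, and the adaptor Blnk (84 UMIs) and Cd79b (13 UMIs) were present. Dntt, the polymerase of lymphoid progenitors, had 51 UMIs in 25 pDC. The NK list came to 1 UMI, of Nkg7, and the red cell genes to 0. Of endothelial genes Cldn5 was at 0 and Pecam1 had 35 UMIs. Of mural genes there were 5 UMIs, and of the oligodendrocyte-like tumor genes only the 9 reporter UMIs. Of the Ccr7 DC list, 4 of 6 genes gave 67 UMIs, 33 of them Il4i1.

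The nucleic acid receptors were sparse. Tlr7 stood at 0, 126, 126 and 0 CPM in the pDC of mice 4, 5, 6 and 7, from 49 UMIs in 27 pDC. Tlr9 had 4 UMIs in 3 pDC, all of mouse 6. After thinning, Tlr7 was found in 10.4% of pDC and Tlr9 in 0%. Unc93b1, the chaperone that carries both receptors to endosomes, was present in 74 of 82 pDC. Irf7 stood at 135, 162, 819 and 756 CPM, higher in both mice at P70 than in both at P43, which was not tested. The value of mouse 7 rests on 2 pDC, where a single UMI is worth 151 CPM. One of these pDC is among the members with 2 Siglech UMIs and much class II RNA, which goes against the label. Of the interferon genes, Ifna1, Ifna2, Ifna4, Ifna5, Ifnb1, Ifnl2 and Ifnl3 had 0 UMIs in the pDC, which with 3 counts as the limit allows up to 7.05 CPM over the 425267 UMIs. The cytokine genes Il6 and Il12b were at 0 as well, Il12a had 9 UMIs and Tnf 27 UMIs in 18 pDC.

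The pDC were then compared with 3 other immune classes in the same tumors, gated by other genes among cells without Siglech and with the same exclusions. Cd209a DC (97 cells, 16, 30, 42 and 9 in mice 4 to 7) had at least 2 UMIs of the lectin Cd209a and an MHC class II UMI. Ccr7 DC (127 cells, 6, 5, 108 and 8) had at least 2 UMIs of Ccr7, the receptor of migrating dendritic cells, and Fscn1, Ccl22 or Cacnb3. B lineage cells (26 cells, 10, 6, 10 and 0) had at least 2 UMIs of Cd79a and Cd79b, Ms4a1 or Jchain. Counts were summed per mouse and class and tested with edgeR's quasi-likelihood test with the mouse as a block, and calls are at a Benjamini-Hochberg adjusted p below 0.05. Mouse 7, with 2 pDC, could not enter, so each fit has 3 mice. The gate genes of either class were left out of every count of called genes, and p-values measure the spread between these 3 mice.

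Against Cd209a DC, the pDC carried more RNA of the surface markers and of the transcription factors Runx2, Spib, Ets1, Bcl11a and Mef2c, and less RNA of 5 of 6 MHC class II genes tested. Of 2826 genes tested, 201 (7.11%) were higher and 240 (8.49%) lower in pDC, with a median log2 fold of -0.01. Of the 18 listed pDC markers, 3 were gate genes and Lag3 and Mzb1 were too low to test. The other 13 were all higher, at a median log2 fold of 5.63. The filter on low counts keeps such a gene through its level in the pDC alone, so this count describes the list. The same holds in reverse for genes that were kept through the other class and stand near 0 in pDC, and such counts are descriptions here and in the comparisons that follow. DESeq2 called 99 genes higher and 89 lower, and without mouse 6, when 1208 genes could be tested, edgeR called 124 and 120.

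Ccr9 (chr9:123678439-123784330), the chemokine receptor that draws pDC to gut and thymus, stood at 875, 629 and 1503 CPM in the pDC of mice 4, 5 and 6 and at 0 in the Cd209a DC of each. It was at least 286-fold higher in pDC, with 3 UMIs over the Cd209a DC of these mice as the limit. The filter kept Ccr9 through the pDC, so this bound is a description. Cox6a2 stood at 538, 737 and 750 CPM and Klk1 at 67.3, 71.9 and 927 CPM, both against 0. They were at least 156-fold and at least 160-fold higher. Cox6a2 had 16, 41 and 250 UMIs and Klk1 2, 4 and 309 in these mice, so mouse 6 carries most of both bounds. Klk1, highest in mouse 6 by far, lost the limit with DESeq2 (adjusted p = 0.14). Lair1, an inhibitory receptor for collagens, stood at 605, 773 and 876 CPM in pDC and at 0, 10.7 and 22.6 CPM in Cd209a DC. The groups did not overlap, and the log2 fold was 5.63 ± 0.41 (SE), a description too, since the filter kept Lair1 through the pDC. Genes outside the lists rose in the same manner, with 0 UMIs in Cd209a DC for Gm21762 (at least 84.4-fold), Mctp2 (at least 50.8-fold) and the kinase gene Prkca (at least 43.2-fold). Pacsin1 and Atp1b1 had 1 and 3 UMIs in Cd209a DC, with ratios of 171 (95% counting interval 30.0 to 6805) and 101 (34.1 to 495).

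Runx2, a runt factor that acts in the exit of pDC from the bone marrow, stood at 975, 683 and 453 CPM in the pDC of mice 4, 5 and 6 and at 21.5, 14.3 and 22.6 CPM in Cd209a DC. Every pDC sum lay above every Cd209a DC sum, and the log2 fold was 4.83 ± 0.38 (edgeR), a description since the filter kept Runx2 through the pDC. The Ets factor Spib stood at 235, 144 and 279 CPM against 0, 7.15 and 11.3 CPM, a log2 fold of 4.53 ± 0.53. Bcl11a stood at 807, 557 and 426 CPM against 129, 96.6 and 147 CPM (1.97 ± 0.30), and Mef2c at 605, 593 and 591 CPM against 258, 165 and 192 CPM (1.44 ± 0.26). Of the 10 listed factors, Tcf4 and Irf8 were gate genes, 8 were tested and 5 were higher, with a median of 1.70 over the 8, again as a description, since Runx2, Spib and Ets1 were kept by the filter through the pDC. Zeb2 (0.02 ± 0.33), Irf7 (0.69 ± 0.29) and Cbfa2t3 (-0.82 ± 0.27) did not pass the limit. Of the sensing genes, 8 of 12 were tested and the lysosomal transporter Slc15a4 (1.89 ± 0.47) and the chaperone Hsp90b1 (1.05 ± 0.23) were higher, at a median of 0.56. Both calls were lost with DESeq2 (adjusted p = 0.15 and 0.068) and without mouse 5 (0.05 and 0.082). Unc93b1 did not pass at 0.74 ± 0.26 (edgeR, adjusted p = 0.077).

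**Figure D3:**
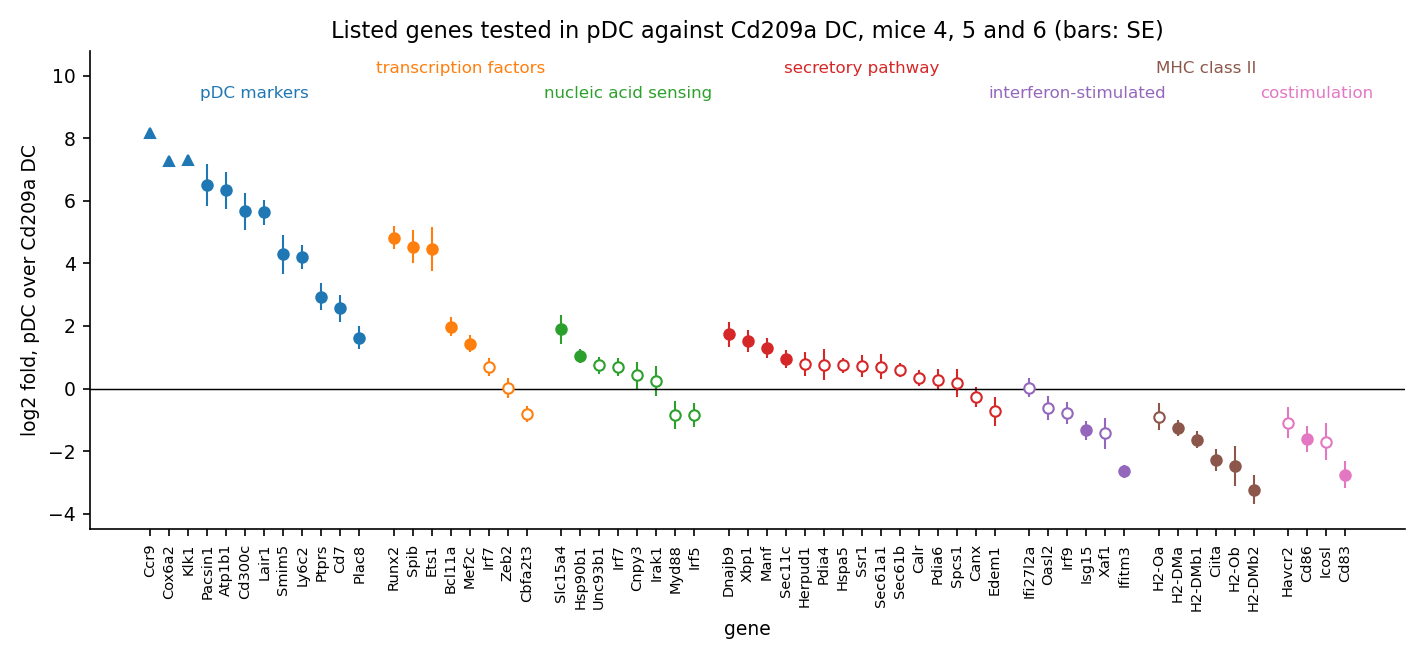
Log2 fold of pDC over Cd209a DC (edgeR, mice 4, 5 and 6) for the genes shown of 7 lists, with bars of 1 SE, filled symbols for adjusted p below 0.05 and triangles for lower bounds where the Cd209a DC had 0 UMIs. The pDC markers stand above 1.5 throughout, while 5 of the 6 MHC class II genes are filled and below 0.

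The MHC class II genes went the other way. Of the 10 listed, H2-Aa, H2-Ab1, H2-Eb1 and Cd74 served the Cd209a DC gate, and their share of RNA is described only. The whole list stood at 11302, 15738, 9929 and 35207 CPM in the pDC of mice 4 to 7. In Cd209a DC it stood at 55027, 55936, 39085 and 57514 CPM. A few members carried much of the pDC values. In mouse 7, 1 of 2 pDC held all 219 UMIs of the 4 gate genes, and in mouse 4, 1 pDC held 203 of 316. H2-Ab1 stood at 11057 CPM in the 6 members with 2 Siglech UMIs and much class II RNA. With 10 or more Siglech UMIs it stood at 834 CPM. Ciita, the master regulator of the pathway, stood at 101, 53.9 and 63.0 CPM in the pDC of mice 4, 5 and 6 and at 408, 340 and 252 CPM in Cd209a DC. The groups did not overlap, and the log2 fold was -2.29 ± 0.35 (edgeR, adjusted p = 6.1e-04). H2-DMa, whose product loads peptides, stood at 336, 593 and 333 CPM against 1214, 980 and 674 CPM (-1.27 ± 0.26). H2-DMb1, H2-DMb2 and H2-Ob were lower as well (-1.63, -3.23 and -2.48), and H2-Oa did not pass. The median over the 6 tested was -1.96, with H2-DMb2 and H2-Ob kept by the filter through Cd209a DC. The same holds for Ciita, which in the pDC of mouse 5 lay just under the level that the filter asks for. Thinned to 1000 UMIs, H2-DMa (-0.72, adjusted p = 0.19) and H2-DMb1 (-1.37, 0.12) were not called. Of 12 costimulation and checkpoint genes, 4 were tested, and Cd83 (-2.75 ± 0.43) and Cd86 (-1.62 ± 0.41) were lower in pDC. Without the mouse block both fell short of the limit (adjusted p = 0.14 and 0.11), and with DESeq2 Cd86 and H2-Ob did (0.28 and 0.14).

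The interferon-stimulated genes Ifitm3 and Isg15 were lower in pDC. Of the 14 listed genes among the features, 7 were tested, these 2 were lower and none was higher (8.49% and 7.11% over all genes), at a list median of -0.78. Ifitm3 stood at 336, 305 and 1095 CPM in the pDC of mice 4, 5 and 6 and at 1740, 2690 and 4871 CPM in Cd209a DC, a log2 fold of -2.64 ± 0.21 (edgeR, adjusted p = 3.2e-06). Isg15 stood at 33.6, 89.8 and 534 CPM against 161, 186 and 1167 CPM, a log2 fold of -1.33 ± 0.31 (edgeR, adjusted p = 0.0091). Both genes were highest in mouse 6 in either class, and within each mouse the pDC were lower. Isg15 lost the limit with DESeq2 (adjusted p = 0.11), without the block (0.51) and without mouse 6 (0.091). The interferon receptor chains Ifnar1 (471, 162 and 366 CPM against 75.2, 53.7 and 109 CPM, 1.75 ± 0.34) and Ifnar2 (1.64 ± 0.36) were higher in pDC, while Flt3 and Csf2rb did not pass, and Ifnar2 was lost with DESeq2 (adjusted p = 0.11).

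Ccl4, a chemokine for lymphocytes and monocytes, stood at 841, 934 and 2449 CPM in the pDC of mice 4, 5 and 6 and at 43.0, 17.9 and 1129 CPM in Cd209a DC. The pDC were higher in each mouse, though the Cd209a DC of mouse 6 lay above the pDC of mice 4 and 5. The log2 fold was 2.69 ± 0.59 (edgeR, adjusted p = 0.007). The call was lost without mouse 4 (2.34, adjusted p = 0.06) and without the block (1.68, adjusted p = 0.34). Ccl4 was found in 55 pDC, at a median of 3 and at most 85 UMIs per member. Il1b was called lower (-2.52 ± 0.46, without the block adjusted p = 0.1), though in mouse 4 the pDC stood higher (135 against 64.4 CPM), and Tnf was not called. Of the 7 homing receptors tested, 2 were higher, Ccr9 among them, and Ccr2 (-2.25 ± 0.38) and Itgb7 (-1.80 ± 0.35) were lower.

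Of the 18 secretory pathway genes, 15 were tested and 4 were higher in pDC (7.11% over all genes), with a median of 0.72. Xbp1, the factor behind the growth of the endoplasmic reticulum, stood at 336, 234 and 354 CPM against 129, 107 and 75.3 CPM, a log2 fold of 1.51 ± 0.35 (edgeR, adjusted p = 0.0099). Dnajb9 (1.73 ± 0.40), Manf (1.29 ± 0.31) and the signal peptidase subunit Sec11c (0.93 ± 0.29) were the other three. These 4 calls did not hold with DESeq2 (adjusted p = 0.086 for Xbp1, 0.076 for Dnajb9, 0.089 for Manf and 0.36 for Sec11c). Without mouse 4 Dnajb9 and Manf were lost as well (0.053 and 0.099), without mouse 6 Xbp1 (0.079), and Sec11c without any 1 mouse (0.079 to 0.17). Of the stress and immediate early genes, Atf3 (-2.76 ± 0.40), Junb (-1.34 ± 0.28) and Hspa1a (-1.44 ± 0.41) were lower in pDC and 6 of 9 did not pass, with Hspa1a lost without mouse 4 (adjusted p = 0.1) and without mouse 5 (0.12).

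Of the 3 monocyte genes tested, Lyz2 and Ccr2 were lower in pDC and Ly6c2, a surface protein that pDC share with monocytes, was higher (774, 916 and 3541 CPM against 0, 82.3 and 147 CPM, 4.20 ± 0.39). The lysozyme gene Lyz2 stood at 0, 701 and 312 CPM in the pDC of mice 4, 5 and 6 and at 1278, 1778 and 3832 CPM in Cd209a DC (-3.03 ± 0.46). All 39 UMIs of mouse 5 lay in 1 pDC. Csf1r, the receptor of the macrophage growth factor, was lower (-3.14 ± 0.51), while Selplg was higher (0.90). The call of Selplg was lost with DESeq2 (adjusted p = 0.26) and without mouse 4 (0.23). The largest falls among genes with the same direction in every mouse included Tnip3 (at least 29.7-fold lower, with DESeq2 adjusted p = 0.086), the mannose receptor Mrc1 (at least 25.8-fold) and Clec4b1 (at least 23.8-fold), all with 0 UMIs in pDC, and Wfdc17 (-5.77 ± 0.62). Of the cDC1 list, Clec9a was higher in pDC, with 33 UMIs against 3 and a ratio of 16.8 (95% counting interval 5.26 to 85.5), and Batf3 was lower (-2.97 ± 0.57). Of the Cd209a DC markers outside the gate, Clec10a, Id2, Itgax, Sirpa and Flt3 were tested and none was called, at a median of -0.73. With the members of at least 10 Siglech UMIs, Id2 (-3.07, edgeR, adjusted p = 0.0089) and Itgax (-1.52, 0.044) were called lower, and without mouse 5 Id2 was too (-1.63, 0.031). The limit of 10 was chosen after the data had been seen and leaves out the members with most Id2 RNA, so the calls with it are descriptions. Blnk was higher in pDC (101, 180 and 207 CPM against 43.0, 17.9 and 3.76 CPM, 3.33 ± 0.60).

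With the 54 pDC of at least 10 Siglech UMIs, 4, 4 and 45 of them in mice 4, 5 and 6, an alternative chosen after the data had been seen, 68 of the named genes called above had a value and all 68 were called again in the same direction. A further 6 listed genes became called, all lower in pDC (Id2, Itgax, Egr1, Icosl, Cbfa2t3 and Xaf1). The log2 folds were then -4.39 for Ifitm3, -3.75 for Ciita, -3.79 for Cd83 and -6.78 for Il1b. Members with few Siglech UMIs held more class II, Ifitm3, Id2 and Il1b RNA. Leaving them out lowers such values, so the new calls and these folds are descriptions. Without the 5 pDC of 10 or more neutrophil UMIs, 68 of 69 such calls were made again. DESeq2 made 54 of the 69.

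Against Ccr7 DC, the pDC carried more RNA of the surface markers that could be tested and of Bcl11a, Mef2c and Runx2, and less of 4 of 5 cytokine and chemokine genes, 4 of 5 interferon-stimulated genes and 4 of 5 MHC class II genes tested. Ccl5, Cxcl9, Cxcl10 and Ifit2, at 0 in the pDC of mice 4 and 5, entered the test through Ccr7 DC. Il1b and Isg15 passed the filter through Ccr7 DC as well. The Ccr7 DC of mice 4 and 5 were 6 and 5 cells with 9803 and 37315 UMIs, which left 658 genes to test. Of these, 99 (15.0%) were higher and 107 (16.3%) lower in pDC, at a median of 0.08. Leaving out a mouse changed this most of all, with 448 higher and 488 lower of 3503 tested without mouse 4, 274 and 167 of 3235 without mouse 5, and 35 and 47 of 534 without mouse 6. Of the 18 markers, 8 could be tested and all 8 were higher (median 6.76), again as a description since the filter kept them through the pDC, and 7 were not tested. Bcl11a had 2 UMIs in Ccr7 DC and Mef2c 3, with ratios of 139 (95% counting interval 37.9 to 1153) and 116 (39.4 to 568). Runx2 was higher too (3.64). Spib was called higher (1.41 ± 0.56), but the pDC were lower in mouse 4 (235 against 306 CPM), and the call was lost with DESeq2 (adjusted p = 0.33), without a filter on low counts (0.30), without the block (0.067) and without mouse 5 (0.48). With Spib that made 4 of the 6 factors tested, at a median of 2.53, while Irf7 and Cbfa2t3 did not pass. The filter kept Bcl11a, Mef2c and Runx2 through the pDC, so this count is a description too. Unc93b1 stood at 538, 449 and 816 CPM in pDC and 204, 161 and 216 CPM in Ccr7 DC, without overlap. The filter kept Unc93b1 through the pDC, so its call (1.65 ± 0.47, edgeR, adjusted p = 0.0021) is a description. That call was lost without mouse 5 and without mouse 6 (adjusted p = 0.19 and 0.29).

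Ccl5, a chemokine for T cells, showed the largest fall by fitted log2 fold among the named genes. It stood at 0, 0 and 27.0 CPM in the pDC of mice 4, 5 and 6 and at 5611, 1662 and 17452 CPM in Ccr7 DC. The log2 fold of -9.53 ± 0.71 (edgeR) is a description, since the filter kept Ccl5 through Ccr7 DC. Cxcl9 (-3.85 ± 0.54) and Cxcl10 (-4.13 ± 0.55), both induced by interferon, and Il1b (-2.57) were also lower, and Ccl4 was the only one of the 5 tested cytokine genes that was higher (1.97 ± 0.53, without mouse 6 adjusted p = 0.27). The 39 Cxcl9 UMIs of the pDC lay in 2 cells. The 54 members of at least 10 Siglech UMIs had 0 UMIs of Cxcl9 and Cxcl10, and with them Il1b stood at -6.62, which is a description too. Thinned to 1000 UMIs Cxcl10 was not called (adjusted p = 0.085). Isg15 stood at 33.6, 89.8 and 534 CPM in pDC and 1938, 1420 and 1936 CPM in Ccr7 DC, without overlap (-3.28 ± 0.53). Ifit2 and Ifitm3 were lower too (-2.26 and -1.60), among 4 of 5 tested (16.3% over all genes). Ifi27l2a did not pass. Without mouse 5, Ifit2 and Ifitm3 were not called (adjusted p = 0.12 and 0.33). With the members of at least 10 Siglech UMIs Ifitm3 stood at -3.36, a description, since the members left out held more of it.

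The MHC class II genes, which no gate used here, were lower for 4 of the 5 tested (16.3% over all genes), at a list median of -1.44. H2-Ab1 stood at 2119, 3593 and 1848 CPM in pDC and 9283, 4529 and 5772 CPM in Ccr7 DC, without overlap (-1.44 ± 0.40, edgeR, adjusted p = 0.0017). H2-Aa (-1.48 ± 0.40), H2-Eb1 (-2.33 ± 0.42) and Cd74 (-1.33 ± 0.42) were lower as well, and H2-DMa did not pass. The call of H2-Eb1 was lost without mouse 5 (adjusted p = 0.08). The calls of H2-Ab1, H2-Aa and Cd74 were lost without mouse 5 (adjusted p = 0.41, 0.42 and 0.71) and without mouse 6 (0.23 for each). With the 54 pDC of at least 10 Siglech UMIs they were -3.53, -3.21 and -2.76. That limit was chosen after members with few Siglech UMIs were seen to hold much class II RNA, so these values are a description. Cd83 (-4.14 ± 0.57) and the checkpoint ligand Cd274 (-3.46 ± 0.62) were lower, as were the DC maturation genes Relb (-4.27 ± 0.54) and Il4i1 (-3.70 ± 0.52). The filter kept Cd83, Cd274, Relb and Il4i1 through Ccr7 DC, so their folds are descriptions.

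Of the secretory genes, 5 of 7 tested were higher than in Ccr7 DC (15.0% over all genes), at a median of 1.48. The filter kept Xbp1, Manf, Calr and Sec11c through the pDC, so this count is a description. Xbp1 stood at 336, 234 and 354 CPM against 0, 26.8 and 20.3 CPM (3.90 ± 0.66), and Manf (2.59 ± 0.56), Calr (1.51 ± 0.46), Sec11c (1.48) and Hspa5 (1.18 ± 0.47) followed. The calls of Calr, Sec11c and Hspa5 were lost without mouse 5 (adjusted p = 0.22, 0.26 and 0.4) and without mouse 6 (0.16, 0.52 and 0.56). Sec11c was lost with DESeq2 as well (0.096). The largest falls beside Ccl5 were in Fabp5, a fatty acid carrier (-7.66 ± 0.66), and the survival gene Bcl2a1b (-7.44 ± 0.72), with Socs2, Mmp25, Cxcl16, Marcksl1, Serpinb6b, Tbc1d4 and Traf1 after them. All of them entered through Ccr7 DC and are descriptions.

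**Figure D4:**
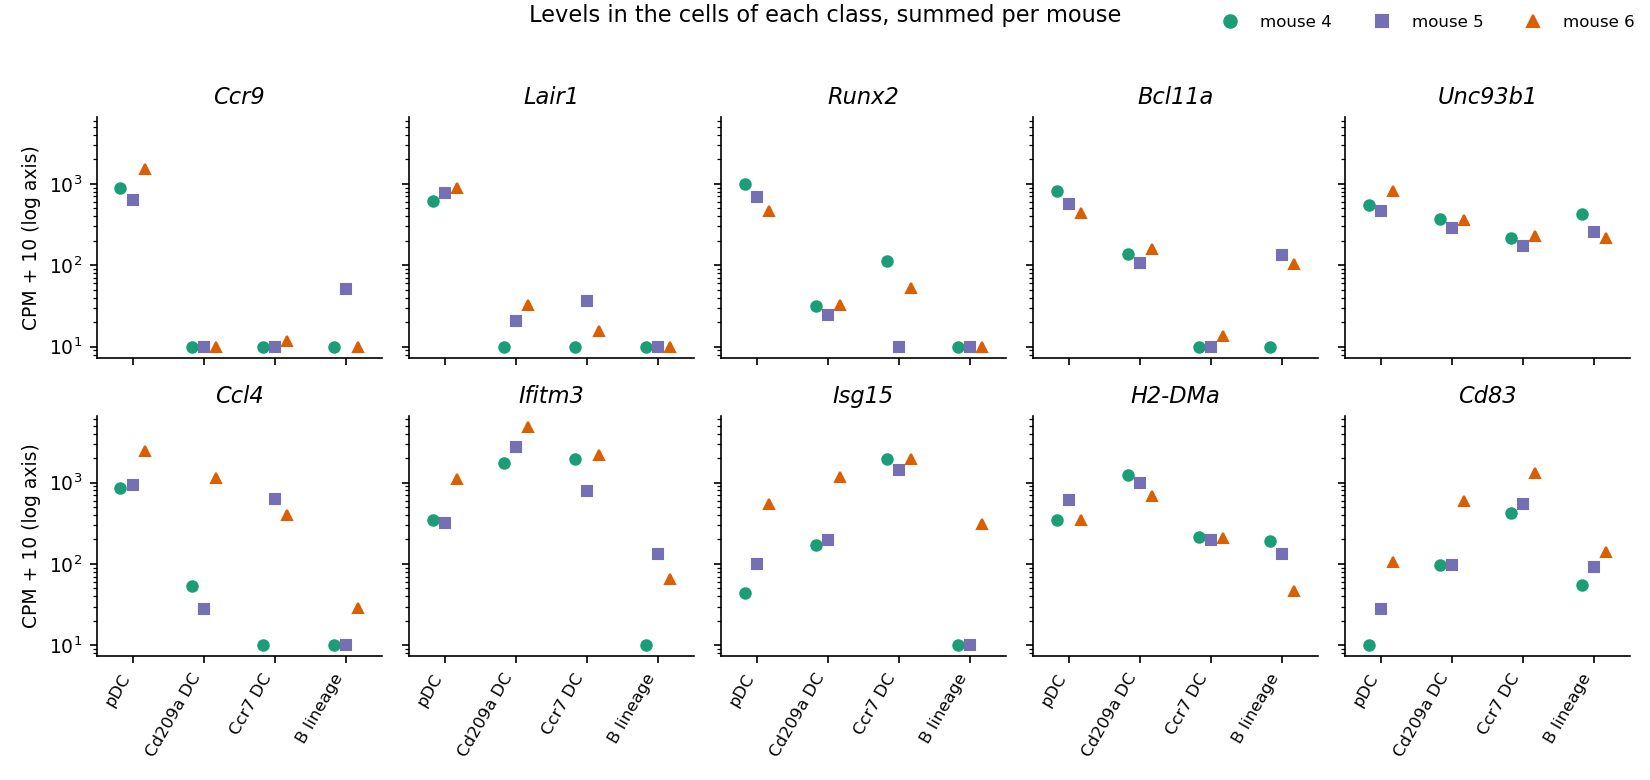
CPM of 10 genes (10 added, log axis) in the summed cells of each class, with 1 symbol per mouse for mice 4, 5 and 6. Ccr9, Lair1 and Runx2 stand highest in the pDC of every mouse, Ifitm3 stands below both dendritic classes in each mouse, and Ccl4 spreads between mice in Cd209a DC, from 17.9 to 1129 CPM.

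B lineage cells share Ly6d with pDC, found in 68.2% of them after thinning against 67.5% of pDC, and the 26 cells allowed a test of 553 genes. Of these, 68 (12.3%) were higher and 13 (2.35%) lower in pDC, at a median of 0.03. Without mouse 6, 35 genes were lower of 375 tested, and DESeq2 called 38 higher and 7 lower. Of the 18 pDC markers, 7 were tested and all were higher (median 5.44, or 4.61 with genes at 0 set to their bound), a count that the filter on low counts again fixes in part, since these genes entered through the pDC. Lair1, the adaptor Fyb, Cox6a2 and Runx2 had 0 UMIs in B lineage cells and were at least 28.1-fold, 23.9-fold, 24.4-fold and 17.3-fold higher in pDC. Ccr9 had 1 UMI there, a ratio of 134 (95% counting interval 24.0 to 5305), and Ccl4 also 1, a ratio of 213 (38.1 to 8424). Bcl11a stood at 807, 557 and 426 CPM in pDC and 0, 124 and 92.6 CPM in B lineage cells, so that it was highest in pDC of the 4 classes in each mouse. Its log2 fold of 2.80 ± 0.64 (edgeR) is a description, since the filter kept Bcl11a through the pDC. Of the 5 listed factors tested, Runx2 and Bcl11a, both kept by the filter through the pDC, were higher, at a median of 1.78, and Mef2c did not pass (-0.10 ± 0.51). Neither of the 2 tested sensing genes, Unc93b1 and Hsp90b1, was called. Ifitm3 was higher in pDC than in B lineage cells (336, 305 and 1095 CPM against 0, 124 and 55.6 CPM, 3.34 ± 0.72), a value carried by members near the limit of the gate, since those with 2 and with 3 to 9 Siglech UMIs stood at 2578 and 2799 CPM and those with 10 or more at 267 CPM. The filter kept Ifitm3 through the pDC, so the fold is a description. Manf, as 1 of 8 tested secretory genes, and Fos were called higher and Junb lower, and each of these calls was lost without mouse 4 (adjusted p = 0.21, 0.10 and 0.62) and without mouse 5 (0.069, 0.32 and 0.18). Manf was kept by the filter through the pDC as well.

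Of the genes lower in pDC, Ebf1, the factor that commits cells to the B lineage, stood at 0 in the pDC of mice 4, 5 and 6 and at 1559, 1286 and 741 CPM in B lineage cells, at least 147-fold lower. Vpreb3 (at least 71.3-fold) and Fcmr (at least 65.7-fold) were also at 0 in pDC, and Cd24a (-3.18 ± 0.59) and Camk2d (-3.17 ± 0.75) followed. Of the MHC class II genes, H2-DMa was higher in pDC (336, 593 and 333 CPM against 183, 124 and 37.1 CPM, 2.08 ± 0.64), a call lost with DESeq2 (adjusted p = 0.18) and without mouse 5 (0.12). The filter kept H2-DMa through the pDC, so its fold is a description. Cd74 (0.02 ± 0.28), H2-Aa (0.43), H2-Eb1 and H2-Ab1 (0.64) did not pass. With the 54 pDC of at least 10 Siglech UMIs, Cd74 (-1.32), H2-Aa (-1.20) and H2-Ab1 (-1.36) turned to lower in pDC, and H2-Eb1 stood at -2.34. That limit was chosen after members with few Siglech UMIs were seen to hold much class II RNA. The 4 values restate that observation and are a description. Ifitm3 and H2-DMa did not pass the filter on low counts there.

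Whether the pDC themselves changed with age could not be tested, since only mouse 6 had enough pDC at P70. In the pDC of mice 4 and 5 against mouse 6, Klk1 stood at 67.3 and 71.9 against 927 CPM, Irf7 at 135 and 162 against 819 CPM and Ly6c2 at 774 and 916 against 3541 CPM. In mouse 7, with 6618 UMIs, Klk1 stood at 756, Irf7 at 756 and Ly6c2 at 604 CPM. Age, library and mouse cannot be told apart in these values. A fit of the gap between pDC and Cd209a DC compared mouse 6 alone with mice 4 and 5, which compares that library with 2 others and not the ages, and takes the lone mouse to vary like the other two. Of 2826 genes, 1 (0.0354%) passed, and 155 (5.48%) had an unadjusted p below 0.05. The gene was Ccl4, whose gap between pDC and Cd209a DC was smaller in mouse 6 than in mice 4 and 5, a difference of -3.98 ± 0.56 on the log2 scale (edgeR, adjusted p = 0.0105). Slamf9, Vim and Ifitm6 were among the next, each at an adjusted p of 0.0721. DESeq2 made no call.

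At 1000 UMIs per cell, pDC held 634, 617 and 642 genes per cell in mice 4, 5 and 6. That was 46.6, 41.7 and 59.4 more than in the Cd209a DC of the same mice, a mean of 49.2 ± 9.13 (SD, n = 3, exact two-sided sign-flip permutation test, p = 0.25, the smallest p that 3 mice allow). Against Ccr7 DC the mean was 52.6 over mice 5 and 6 (exact permutation p = 0.5, the smallest for 2 mice), and against B lineage cells 16.2, with mouse 5 at -22.2. Without thinning the means were 5.29, 681 and 737 genes, in cells of unequal depth. Cycling was rare. Of 8 cell cycle genes at least 2 were found in 0 of 5, 0 of 6 and 1 of 64 thinned pDC (1.56% of mouse 6). The differences to Cd209a DC, Ccr7 DC and B lineage cells were -0.273, 0.781 and -9.00 percentage points, each at p = 1 in an exact permutation test over mice. Mki67 had 12 UMIs in 6 pDC, all of mouse 6.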

How the data were processed

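Droplet-based 3′ libraries of 4 tumors were analysed. The deposited values are UMI counts for each gene in each barcode, which the authors made with Cell Ranger 6.0.2 on mm10 extended by human MYCN and luciferase (21861 features, no normalization). Counts were read with Python 3.11.15, cells filtered and gated as stated, and no doublet caller was run. The members and the gene lists were chosen with earlier results of these data known. Counts were summed per mouse and class with at least 5 cells and tested in R 4.3.3 with edgeR 4.0.16 (TMM, filterByExpr, quasi-likelihood test, mouse as block, since both classes come from the same animal, Benjamini-Hochberg over all genes tested), with DESeq2 1.42.0 as an alternative, after a test on simulated data. CPM are UMIs scaled to 1000000 per summed class. Named genes are those of the lists, and the 10 largest rises and falls per comparison among called genes with the same direction in every mouse. Exact permutation tests used scipy 1.17.1, and numpy 2.4.6, pandas 2.3.3 and matplotlib 3.10.9 were used. A count of 0 was bounded by 3 UMIs over the group. Each mouse is 1 library. Gene positions came from the GENCODE annotation and promoters from RefSeq, both on GRCm38. Some genes of the lists were counted but are not reported here by name.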

Additional observations from a re-analysis of the deposited data

Results flagged for a closer look

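The gap in Ccl4 between pDC and Cd209a DC was smaller in mouse 6 than in mice 4 and 5, by -3.98 on the log2 scale (SE 0.56, edgeR's quasi-likelihood test, Benjamini-Hochberg adjusted p = 0.0105). It is listed because it alone of 2826 genes passed the limit in the fit of class by age. Mouse 6 was the only P70 mouse in that fit, so it compares 1 library with 2 others and no change with age is shown, and DESeq2 called no gene. Ccl4 was higher in mouse 6 than in mice 4 and 5 in both classes, at 2449 against 841 and 934 CPM in pDC and at 1129 against 43.0 and 17.9 CPM in Cd209a DC.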

How the results depend on the processing

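No named gene that was called turned to a call in the other direction under the alternatives run. Against B lineage cells, 3 class II genes that were not called and above 0 became lower with at least 10 Siglech UMIs, at -1.32 (Cd74), -1.20 (H2-Aa) and -1.36 (H2-Ab1). Numbers of called genes are given as higher and lower in pDC. Against Cd209a DC (201 and 240), DESeq2 called 99 and 89, thinning to 1000 UMIs (288 genes tested) 33 and 18, no filter on low counts 482 lower, and leaving out 1 mouse 124 to 181 and 120 to 208, lowest without mouse 6. Against Ccr7 DC (99 and 107), no filter gave 356 and 429, and leaving out 1 mouse 35 to 448 and 47 to 488, as 534 genes (without mouse 6) to 3503 genes (without mouse 4) could be tested, with 274 and 167 without mouse 5. Against B lineage cells (68 and 13), DESeq2 called 38 and 7, no filter 230 and 54, thinning 7 and 2, at least 10 Siglech UMIs 22 lower, and leaving out 1 mouse 47 to 72 and 11 to 35. Without the replicate block, that is without pairing classes by mouse, the calls were 163 and 158, 94 and 98, and 61 and 11. The comparison of the class gap in mouse 6 with mice 4 and 5 (0 higher, 1 lower) gave 0 and 0 with DESeq2, 2 and 9 with no filter, 8 and 4 after thinning, 1 and 6 with mitochondrial shares under 10%, 1 and 5 without pDC of 10 or more neutrophil UMIs, and 4 and 14 with at least 10 Siglech UMIs. The last 2 settings were chosen after seeing the data. At least 10 Siglech UMIs left 54 pDC. The share difference between ages ran from -0.239 (without mouse 6) to 2.19 points. The cycling difference was 0 against Cd209a DC and Ccr7 DC with 3 of 8 genes, -10.8 against Ccr7 DC without thinning and 0 against B lineage cells at 2000 UMIs. Leaving out 1 mouse gave -0.409 to 0, 0 to 1.56 and -13.5 to 0 points. No paired analysis was possible because the ages come from different mice. Fits of pDC by age, of that gap without a mouse and of at least 3 Siglech UMIs gave no value, with too few pDC. Depth limits genes under about 3 UMIs per class.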

Other observations

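The 2 pDC of mouse 7 carried 10 and 2 Siglech UMIs. Together they held 233 UMIs of the 10 MHC class II genes, 30 UMIs of the interferon-stimulated genes and 12 UMIs each of Irf8 and Ly6d, and they entered no fit. Their values are given without comparison.

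The B cell adaptor Blnk had a UMI in 46 of 82 pDC and Dntt in 25, while Ebf1, Pax5 and Cd79a had none. Cd8a had a UMI in 31 pDC and Cd8b1 in 39, with Cd3e and Cd3g at 0. Clec9a had 34 UMIs in 24 pDC, whereas Xcr1 had 16 UMIs in 2. Lag3 had 29 UMIs in 20 pDC, 19 of them in mouse 6.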
